A study of Rattus norvegicus with 2 samples.

Results

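The sarcomere proteins of fast and slow fibers were examined as 74 probe sets for 37 genes of the thick filament, the thin filament, the Z disc and the M band, out of 31042 rat probe sets on the array, which name 14217 genes alone. The members are the probe sets for which the platform annotation gives one symbol from a list of 39 genes. No probe set was named for Mylpf, the fast regulatory light chain, or Actc1, the cardiac actin, alone. A further 8 probe sets were annotated to several genes at once, such as Acta2 with Actc1 or Myh7 with Myh6, and are not members. RNA came from laser-captured fiber sections of Vastus lateralis muscle of aged F344 x BN F1 hybrid rat, 36 months old in the labels and younger in the methods. The design text speaks of one animal, the methods of rats. ETS abnormal fibers (electron transport system, ETS) were negative for cytochrome C oxidase and hyper-reactive for succinate dehydrogenase, a ragged red phenotype, and control fibers were normal for both enzymes. The sections of each population were pooled, put through 2 rounds of T7 amplification and read on 1 Affymetrix rat genome array, so there was 1 array per population and no replicate.

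The sarcomere is the contractile unit of the muscle fiber, in which myosin of the thick filament pulls on actin of the thin filament once calcium has bound troponin C and tropomyosin has moved aside. Fast and slow fibers build it from different genes, so that myosin heavy chains, light chains, troponins and myosin-binding proteins mark the fiber type. Vastus lateralis of the rat is a mostly fast muscle, and sarcomere transcripts are among the most abundant in any skeletal muscle.

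Values are GCOS signals, intensities on a linear scale that the authors scaled array by array. As background served the 95th percentile, within an array, of 133 probe sets for 122 genes foreign to skeletal muscle, among them chemosensory receptors, lens crystallins and digestive enzymes, and came to 3380.0 on the ETS abnormal and 2995 on the control array. To be called higher, a probe set had to exceed the background and to be at least 2-fold above the larger of its own signal and the background on the opposite array. A fold of a probe set above background against a value below it is given as a lower bound. Log2 ratios are those of the deposited signals, and where a signal lies below background they describe the arrays and are no estimate of a fold change. With 1 array per population no p-value, error or interval of a difference can be given, and a difference between fibers cannot be told apart from one between the pools or their amplifications. Over all gene probe sets log2 ratios (ETS abnormal over control) had a 5th percentile of -3.69, a median of 0.06 and a 95th percentile of 3.79, and the arrays had a Spearman correlation of 0.142 across these probe sets, which are not independent replicates. The control probe sets for beta-actin read 299.9 at the 3′ end and 317 at the 5′ end on the ETS abnormal array, and 2791 and 2520 on the control array. Those for hexokinase read 2872 at the 3′ end and 348 at the 5′ end on the ETS abnormal array. On the control array the order was reversed, with 83.4 and 2702. The ends of a control transcript thus agreed for beta-actin and not for hexokinase. Their part in the results was not tested.

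Few sarcomere probe sets were bright on either array. Of the 74, 3 (4.05%) exceeded background for ETS abnormal fibers and 4 (5.41%) for control fibers, where 4.35% and 7.04% of all gene probe sets did. The 6 probe sets concerned belong to Acta1, Mylk2, Tmod4, Tnni2 and Tpm1, and 1 of them, for Tpm1, was above background on both arrays. None was called higher in ETS abnormal fibers, against 0.132% of all gene probe sets. One, for Mylk2, was called higher in control fibers (1.35% of the members), against 0.0548% of all gene probe sets. The median signal of the members was 369 in ETS abnormal against 429 in control fibers, below the 565.5 and 559 of all gene probe sets. Only 27 members (36.5%) exceeded the median of the ETS abnormal array and 31 (41.9%) that of the control array. Probes of different genes bind with different strength, so these ranks describe the arrays rather than the amount of each transcript. On the deposited signals, with no background, 22 members were at least 2-fold brighter on the ETS abnormal side and 25 on the control side, that is 29.7% and 33.8%, next to 32.6% and 31.1% of all gene probe sets. In either population fewer fibers of a type and less RNA per fiber cannot be told apart. The background is a percentile of the 133 probe sets of foreign genes, so by definition 7 of them exceeded it on each array. The brightest were the liver albumin Alb with 5761 in ETS abnormal and Uox, a liver urate oxidase, with 6462 in control fibers. Mylk2 in control fibers was the one member brighter than all of these. The markers that define skeletal muscle thus lay otherwise within the signals of genes that muscle should not express, and the fiber type of the pools could not be checked against them.

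**Figure D1:**
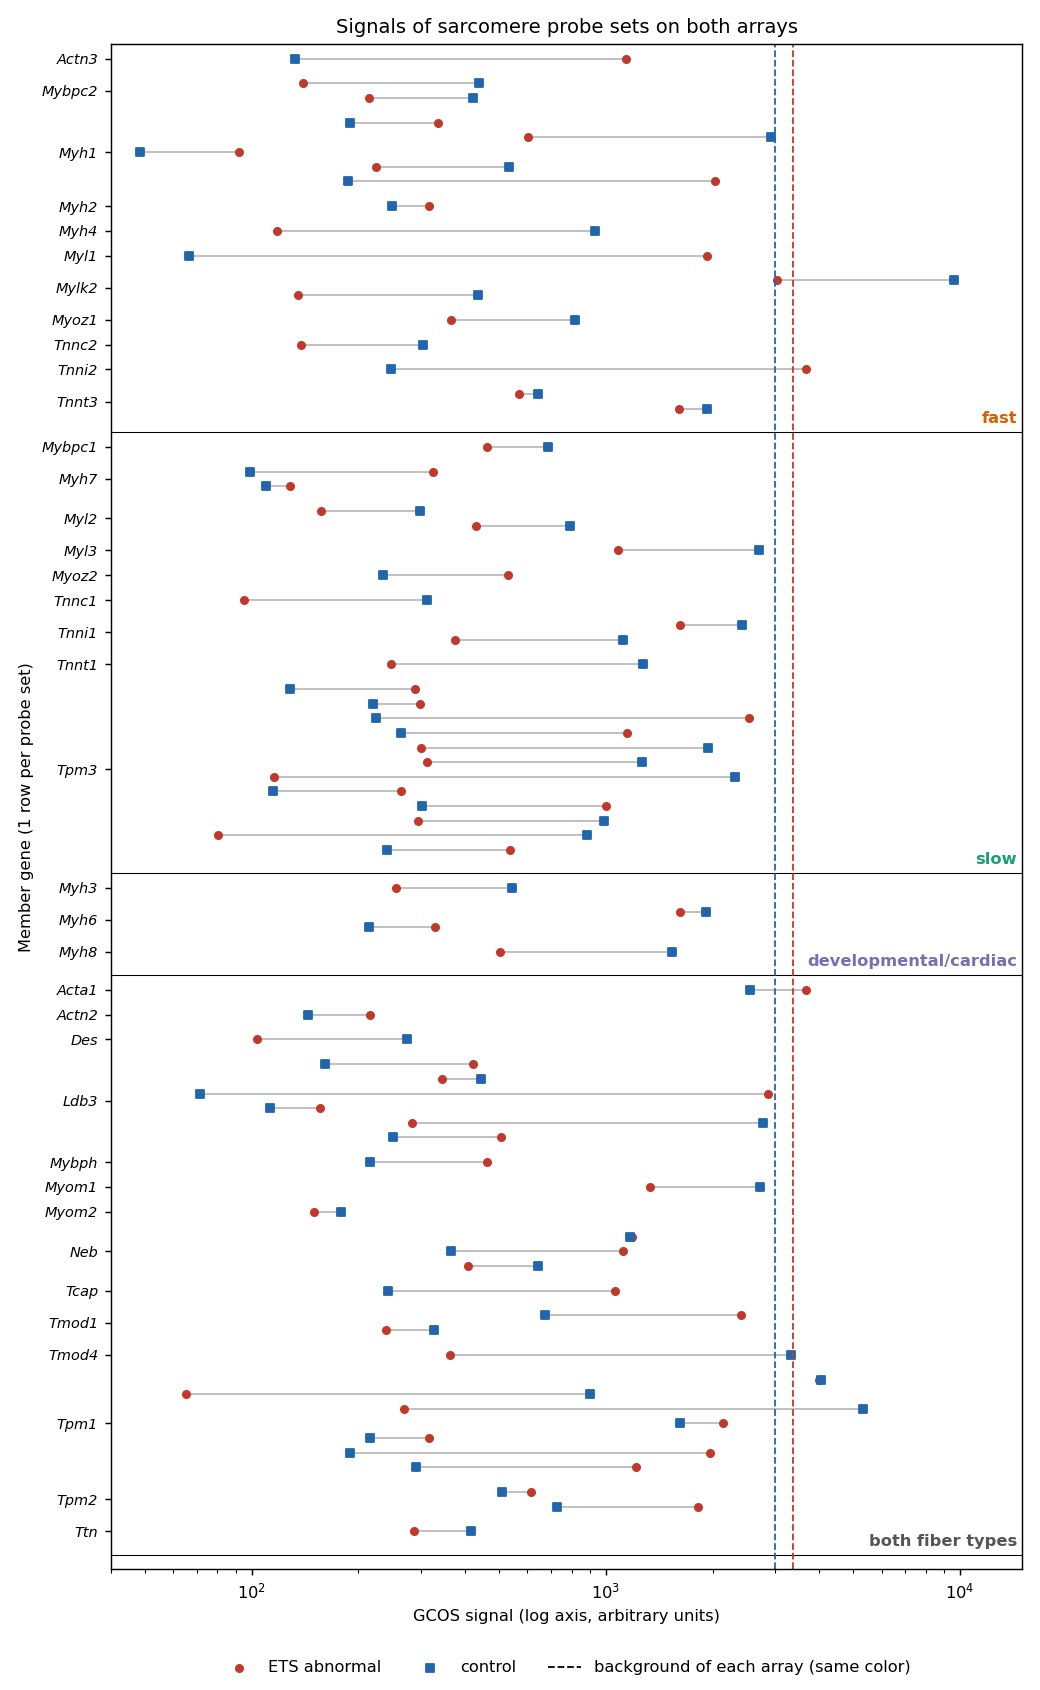
GCOS signal (log axis) of each of the 74 sarcomere probe sets, with red circles for the ETS abnormal array and blue squares for the control array, grouped by fiber type, with dashed lines at the background of each array. Only 6 probe sets have a point beyond the background line of its own array, and the lines joining the arrays run in either direction within each group.

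**Figure D2:**
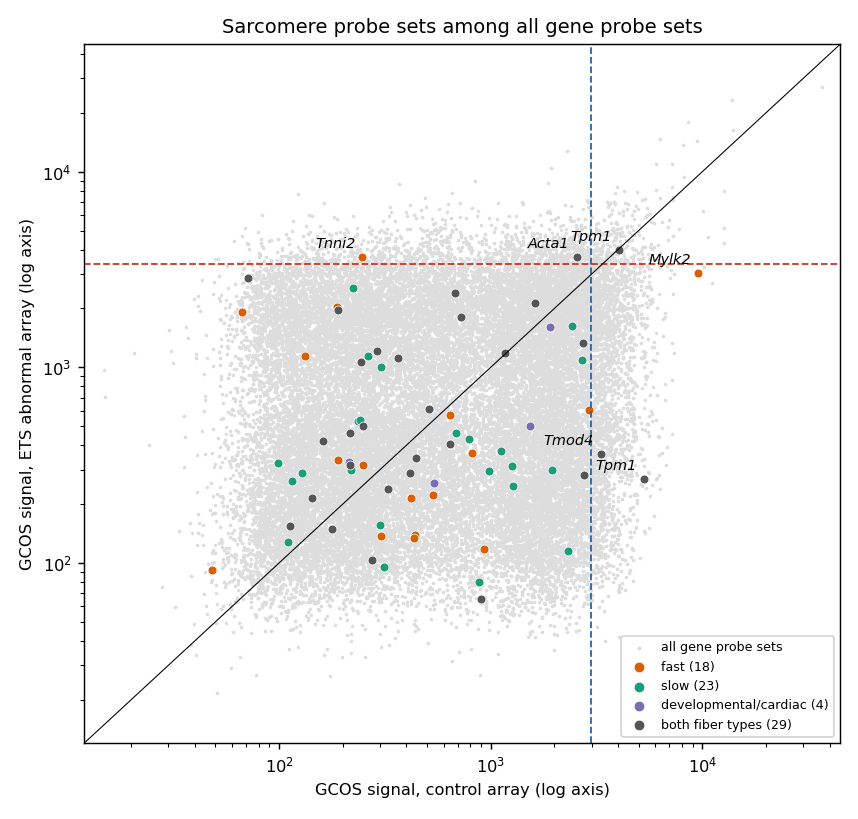
Signal on the ETS abnormal array against signal on the control array (log axes) for all gene probe sets (grey) and the sarcomere probe sets (colored by fiber type, number in parentheses), with the background of each array dashed. The sarcomere probe sets are spread through the cloud, and the 6 above background are named.

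No member probe set for a myosin heavy chain, the motor of the thick filament, lay above background, while a probe set annotated to Myh7 and Myh6 together, which is not a member, did so on the control array (2881 in ETS abnormal against 3367 in control fibers). Myh4, the heavy chain of type IIb fibers, gave 118 in ETS abnormal against 933 in control fibers. Myh2, of type IIa fibers, had 317 and 249. Myh7, of slow fibers, was read by a pair of probe sets, with 326 and 99 for the brighter and 128 and 109.9 for the other. The Myh4 probe set was therefore dimmer and the Myh7 probe sets brighter on the ETS abnormal array, all at signals that genes foreign to muscle also reached. The probe sets annotated to Myh7 and Myh6 together went the other way, the further one with 368 against 835. The 5 probe sets of Myh1, of type IIx fibers, differed in direction, from 602 in ETS abnormal against 2921 in control fibers to 2037 against 187. The sequences of the heavy chain genes are much alike, and how far one probe set reads several of them is uncertain. Myh3, Myh2, Myh1, Myh4 and Myh8 lie next to each other in that order on chromosome 10 in the GRCr8 assembly, while Myh6 and Myh7 are on chromosome 15. Within the chromosome 10 cluster the genes differed in direction, all below background. The embryonic chain Myh3 (255 and 543) and the perinatal chain Myh8 (501 and 1534) were dimmer in ETS abnormal fibers, as Myh4 was. Myh2 and 3 of the 5 Myh1 probe sets were brighter there. The cardiac chain Myh6 had 1616 and 1918 for its brighter and 329 and 215 for its dimmer probe set.

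The light chains bind the neck of the myosin head. Myl1, the fast essential light chain, gave 1927.5 in ETS abnormal against 66.6 in control fibers. Myl3, the slow essential light chain, went the other way with 1085 and 2709. Myl2, the slow regulatory light chain, was dimmer in ETS abnormal fibers with either probe set, at 430.4 against 792 and 157 against 299. So the fast and slow essential chains had ratios of opposite sign, although neither was above background. Mylk2, the kinase that phosphorylates the regulatory light chain in skeletal muscle, was the only member called, with 3048 in ETS abnormal against 9596 in control fibers. Set against the ETS abnormal background this is at least 2.84-fold higher in control fibers. Its other probe set, which the array marks as shared between transcripts, had 135 and 436.5. The log2 ratios of these probe sets, -1.65 and -1.69, were close, though the latter probe set lay below background on both arrays and both ratios lay inside the range of all gene probe sets. Myosin-binding protein C, which braces the thick filament, was dimmer in ETS abnormal fibers in its fast form Mybpc2 (214 against 421 and 139.5 against 439) and in its slow form Mybpc1 (461 against 685). Mybph, the related protein H, was brighter there, with 461 against 215.5. Taking the thick filament as a whole, 4 of 23 probe sets (17.4%) had at least 2-fold more signal for ETS abnormal and 9 (39.1%) for control fibers, where 32.6% and 31.1% of all gene probe sets did, with a median log2 ratio of -0.88 against 0.06 over all gene probe sets.

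The thin filament held 5 of the 6 probe sets above background. Acta1, the skeletal muscle actin that forms its core, gave 3683 in ETS abnormal against 2557 in control fibers. The bound of at least 1.23-fold fell short of the 2-fold needed for a call. Tnni2, the inhibitory troponin of fast fibers, had 3663 and 248, at least 1.22-fold higher against background. Tmod4, the tropomodulin that caps the thin filament in skeletal muscle, had 362 and 3334 in the same order, and the latter lay below the background of the other array, so no bound can be given. Actin and fast troponin I were thus above background in ETS abnormal fibers alone, and Tmod4 in control fibers alone. Tpm1, the alpha-tropomyosin, was equally bright on both arrays, with 3999 and 4050.3 for probe set 1368724_a_at. A further Tpm1 probe set, 1370288_a_at, gave 269 in ETS abnormal against 5306 in control fibers, a bound of at least 1.57-fold toward control fibers. Both carry the array's mark for several transcripts of one gene, and Tpm1 is known for extensive alternative splicing. Which transcripts each probe set reads was not tested.

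The upstream sequences of these 4 genes are shown because they are the members above background for which RefSeq lists a promoter. Each is the 250 bases before the annotated start in GRCr8, 5′ to 3′ on the strand of the gene. Capitals mark an E-box (CANNTG, the site of myogenic regulators), TATAAA or a CArG box (the site of serum response factor), searched on both strands. The windows are chr19:68784195-68784444 (minus strand) for Acta1, chr1:207024240-207024489 (plus strand) for Tnni2, chr2:185384469-185384718 (plus strand) for Tmod4 and chr8:76543416-76543665 (minus strand) for Tpm1.
Acta1: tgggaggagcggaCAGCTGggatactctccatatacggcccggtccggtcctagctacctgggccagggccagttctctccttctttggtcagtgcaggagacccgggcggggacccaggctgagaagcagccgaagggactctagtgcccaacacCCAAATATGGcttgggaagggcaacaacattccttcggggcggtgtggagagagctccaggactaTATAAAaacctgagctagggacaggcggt
Tnni2: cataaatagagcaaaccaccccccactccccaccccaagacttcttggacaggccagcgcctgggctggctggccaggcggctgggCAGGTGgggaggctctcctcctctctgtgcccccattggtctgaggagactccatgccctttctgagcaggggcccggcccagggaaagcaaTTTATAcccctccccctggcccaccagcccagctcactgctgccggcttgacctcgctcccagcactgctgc
Tmod4: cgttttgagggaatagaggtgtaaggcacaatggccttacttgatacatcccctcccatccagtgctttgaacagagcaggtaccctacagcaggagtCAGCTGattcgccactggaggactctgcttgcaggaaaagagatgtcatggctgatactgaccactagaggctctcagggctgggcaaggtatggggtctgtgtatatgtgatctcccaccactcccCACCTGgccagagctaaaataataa
Tpm1: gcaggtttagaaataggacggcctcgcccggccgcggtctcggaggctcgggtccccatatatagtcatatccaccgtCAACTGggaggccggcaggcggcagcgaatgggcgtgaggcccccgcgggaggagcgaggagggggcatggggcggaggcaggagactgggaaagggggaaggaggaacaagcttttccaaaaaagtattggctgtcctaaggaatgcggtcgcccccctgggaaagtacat
Acta1 held 1 E-box, a CArG box 94 bases and TATAAA 29 bases before the start, and Tnni2 held 1 E-box and TATAAA on the opposite strand. Tmod4 held 2 E-boxes and Tpm1 1, with none of the other motifs. Over the 34 promoters listed for 31 of the members, 73.5% held an E-box, 26.5% TATAAA, 11.8% a CArG box and 17.6% a MEF2 site, a motif for the myocyte enhancer factors. The shares among 33469 listed promoters were 65.5%, 12.9%, 1.5% and 2.96%. A match is a description of these letters, and a TATAAA overlapped a MEF2 site in 2 cases.

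The other troponins were all below background. Troponin T, which ties the complex to tropomyosin, had 1609 and 1924 in its fast form Tnnt3 (569 and 641 for the other probe set) and 247.5 and 1275 in its slow form Tnnt1. Troponin C, the calcium sensor, was dim throughout, with 138 and 304 for the fast Tnnc2 and 95.1 and 313 for the slow Tnnc1. Tnni1, the slow troponin I, had 1620.2 and 2418 for the brighter and 374 and 1120.3 for the dimmer probe set. Apart from Tnni2, every troponin probe set was therefore dimmer in ETS abnormal fibers. The beta-tropomyosin Tpm2 was brighter there in both probe sets (1817 against 727 and 613 against 509). Nebulin, Neb, the ruler of thin filament length, had 1186 and 1169.9 for its brightest probe set, 1114 and 364 for a further one and 407 and 642 for the last. Tmod1, a tropomodulin of heart and muscle, had 2407 and 675 in one probe set and 239 and 327 in the other. Of 36 thin filament probe sets 12 (33.3%) were at least 2-fold brighter on each array, near the 32.6% and 31.1% of all gene probe sets, with a median log2 ratio of 0.00.

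Z disc and M band genes, which anchor the filaments, were below background on both arrays. Actn3, the alpha-actinin of fast fibers, had 1138 and 132 in ETS abnormal and control fibers, and Actn2, the alpha-actinin of all fibers, 215 and 144. Tcap, which caps titin at the Z disc, had 1060.1 and 243. These genes were brighter in ETS abnormal fibers. Titin itself, Ttn, had 287 and 416, and desmin, Des, the intermediate filament around the Z disc, had 103 and 275, the M band protein Myom1 had 1335 and 2718 and Myom2 149.8 and 178.5, so these genes were dimmer there. Myozenins, which bind calcineurin at the Z disc, were split, with the fast Myoz1 at 364 and 818 and the slow Myoz2 at 529.6 and 235. The 6 probe sets of Ldb3, the PDZ and LIM protein of the Z disc also called Cypher, ran from 2876 in ETS abnormal against 71.3 in control fibers to 283 against 2772. Of 15 probe sets of this group 6 (40%) had at least 2-fold more signal for ETS abnormal and 4 (26.7%) for control fibers. Over all gene probe sets the shares were 32.6% and 31.1%. Ldb3 supplied 3 of the 6 and 1 of the 4. The median log2 ratio was 0.47, against 0.06 over all gene probe sets.

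The median ratios of fast and slow isoforms lay close together with all probe sets and less so with fewer. The 18 probe sets of 11 fast genes had a median log2 ratio of -0.62 (quartiles -1.55 and 0.90), and the 2-fold mark was passed by 4 (22.2%) toward ETS abnormal and 8 (44.4%) toward control fibers, where 32.6% and 31.1% of all gene probe sets passed it. The 23 probe sets of 9 slow genes had a median of -0.58 (quartiles -1.73 and 1.17), with 8 (34.8%) and 9 (39.1%). Of these 23, 12 were for Tpm3 alone, which supplied 6 of the 8 and 5 of the 9 and had a median of 0.80. The slow summary over all probe sets thus rests largely on 1 gene. With one probe set per gene the medians were -0.98 for fast and -0.58 for slow genes, and without _s_at and _x_at probe sets -0.62 and -0.88. The 2 fast probe sets above background on an array, for Tnni2 and Mylk2, gave a median of 1.12, and no slow one was above background. The medians over all probe sets were below the 0.06 of all gene probe sets, and both interquartile ranges held that value. The 29 probe sets of genes used in both fiber types had a median of 0.41, with 10 (34.5%) and 6 (20.7%), and the 4 for developmental and cardiac chains -0.67, with none and 2. For the 133 probe sets of genes foreign to skeletal muscle it was 0.85. Outside the 5th to 95th percentile of all gene probe sets were 3 members toward ETS abnormal fibers, namely Ldb3, Myl1 and Tnni2, and 3 toward control fibers, which are a pair for Tpm1 and one for Tpm3. These 6 are 8.11% of the members, where 10% of all gene probe sets lie outside by definition.

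**Figure D3:**
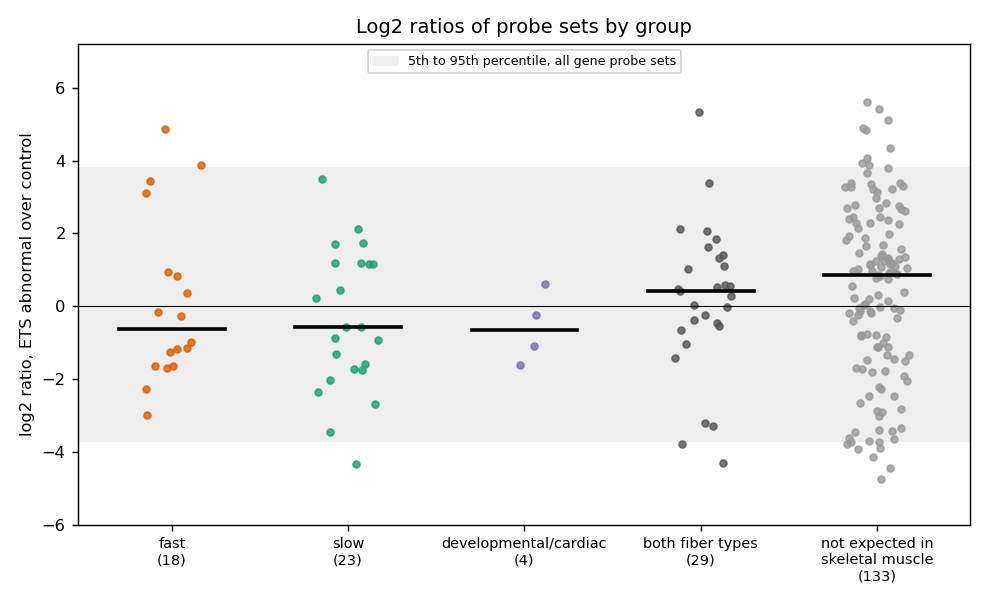
Log2 ratio (ETS abnormal over control) for each probe set of the fiber type groups and of genes foreign to skeletal muscle (points, number of probe sets in parentheses), with the median as a black line and the 5th to 95th percentile of all gene probe sets shaded. With all probe sets the fast and slow medians are -0.62 and -0.58.

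Within protein families the deposited signals gave no common direction. In 9 families with a measured gene on either side, the probe sets with the highest mean signal gave the fast gene the higher log2 ratio in 5 and the slow gene in 4. Apart from Tnni2 in ETS abnormal fibers and Tpm1 on both arrays, every one of these probe sets lay below background, so the signs describe these arrays. The ratio was higher for the fast gene in troponin I, troponin T, troponin C, the essential light chain and the alpha-actinins. It was higher for the slow gene in the myosin heavy chain (Myh7 against Myh4), the myozenins, the myosin-binding proteins C and the tropomyosins. The alpha-actinins and tropomyosins contrast a gene of one fiber type with one used in both. With the median over all probe sets of a gene, fast was again higher in 5 families and slow in 4, but the fast minus slow difference of the tropomyosins went from -3.52 to -0.40 on the log2 scale.

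**Figure D4:**
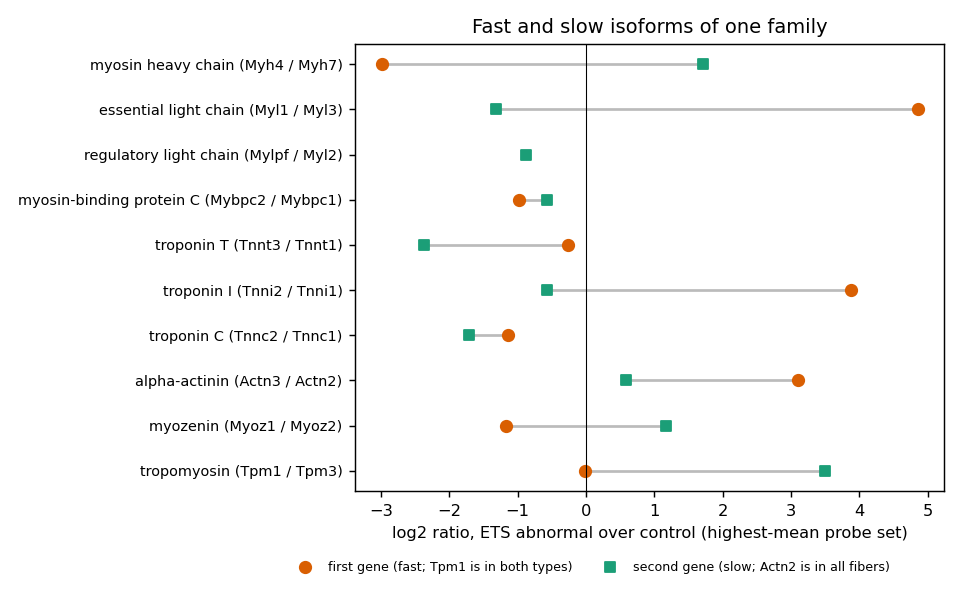
Log2 ratio (ETS abnormal over control) for the fast gene (circles) and slow gene (squares) of each protein family, using the probe set with the highest mean signal and joined by a line, with Actn2 in the slow and Tpm1 in the fast position although both are used in either fiber type. The circle lies to the right of the square in 5 families and to the left in 4, and Myl2 stands without a fast partner.

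Probe sets of the same gene often differed in direction. Among 14 members with several probe sets, 2 genes (Myh7 and Tpm2) were brighter in ETS abnormal fibers in all of them, 5 (Mybpc2, Myl2, Mylk2, Tnni1 and Tnnt3) were brighter in control fibers in all, and 7 were mixed. Ldb3, Myh1, Tpm1 and Tpm3 each had a probe set at least 2-fold brighter on one array and another at least 2-fold brighter on the other. Tpm3, the slow alpha-tropomyosin, had 12 probe sets, 6 of them brighter by at least 2-fold in ETS abnormal fibers, up to 2542 against 224, and 5 in control fibers, down to 116 against 2315. Of the 124 pairs of probe sets of one member 59, or 47.6% (95% Wilson interval 39.0 to 56.3, counting error only, pairs of one gene not being independent), had ratios of the same sign. Leaving out Tpm1 and Tpm3, which supply most pairs, gave 51.4%. The share over all genes with several probe sets was 50.8% of 9597 pairs. The members' signals had a Spearman correlation of 0.139 between the arrays over 74 probe sets, next to 0.142 for all gene probe sets.

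Other genes of the contractile apparatus were also mostly below background. Of 32 measured further sarcomere and Z disc genes, with 47 probe sets, 2 probe sets (4.26%) exceeded background on the ETS abnormal and 3 (6.38%) on the control array, near the 4.35% and 7.04% of all gene probe sets, and none was called higher. Flnc, the muscle filamin, had 3541 and 173 in ETS abnormal and control fibers, and Pdlim7 3961 and 2041. Smtnl1 had 401 and 4395, Synpo2 1351 and 3870 and Pdlim3 376 and 3215. Among genes that release and store calcium, the slow calcium pump Atp2a2 had 811 and 4801 in one of its 5 probe sets and 3231 against 406 in another, and the fast pump Atp2a1 had 2189 and 1563. Parvalbumin, Pvalb, the calcium buffer of fast fibers, had 1687 and 3021. Triadin, Trdn, of the calcium release complex had 3553 and 102, and Tmem38a, a channel of the sarcoplasmic reticulum, 1430.1 and 5201. Jsrp1 (1475 and 3500), Cacnb1 (283.5 and 3033) and Jph2 (275 and 3023) were above background in control fibers alone. In all, 1 of 39 probe sets for calcium handling (2.56%) exceeded background on the ETS abnormal and 6 (15.4%) on the control array, where 4.35% and 7.04% of all gene probe sets did. None was called, and the difference between the arrays was not tested.

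Genes of other muscle and of the cells around fibers were above background in few probe sets, but their lists are short. Over all gene probe sets 4.35% were above it on the ETS abnormal and 7.04% on the control array. Of 12 smooth muscle probe sets 1 (8.33%) exceeded background in ETS abnormal fibers, the smooth muscle actin Acta2 with 5321 against 1006. None did in control fibers, and the smooth muscle myosin Myh11 stayed below it. Of 10 heart muscle probe sets 1 (10%) did in ETS abnormal and 3 (30%) in control fibers. The natriuretic peptide Nppa had 5506 and 6465, Nppb 1022 and 4421 and the cardiac troponin Tnnt2 188.5 and 3752. Among 11 probe sets of satellite cells and regenerating fibers, 1 (9.09%), for Ncam1, was above background, in control fibers (378 against 3879). A further Ncam1 probe set went the other way (460 against 148). Myog, a regulator of differentiation, had 2738 and 545, below background on both arrays. Of the 11, 4 (36.4%) were brighter in ETS abnormal and 7 in control fibers, where 51.2% of all gene probe sets were brighter in ETS abnormal fibers. None of 12 fibroblast and 4 erythroid probe sets was above background. In control fibers 2 of 16 endothelial and pericyte ones were (12.5%, Pdgfrb and Flt1). So were 1 of 12 for leukocytes (8.33%, Csf1r), 1 of 9 for nerve (11.1%, Mbp) and 1 of 6 for adipocytes (16.7%, Adipoq). In the cytoskeleton shared by all cells, 1 of 17 probe sets was called higher in ETS abnormal fibers, against 0.132% of all gene probe sets. It was for Actg1, a non-muscle actin, with 6472 against 2720 (at least 2.16-fold). Tmsb4x, with 3673 and 396, exceeded background in ETS abnormal fibers without a call. Tpm4 went the other way, with 621 and 4397, and exceeded background in control fibers alone. Of the 17, 11 were brighter in ETS abnormal and 6 in control fibers. The summed signal of the smooth muscle list was 18300.0 in ETS abnormal against 9654 in control fibers, that of the heart muscle list 11410.0 and 20460.0, and that of the satellite cell list 9235 and 12790.0. Acta2 alone gave 5321 of the smooth muscle sum in ETS abnormal fibers. Other sums differed too, such as fibroblast (7117 and 12940), nerve (18350 and 12700) and the genes foreign to skeletal muscle (161300 and 133000). No marker had a signal of 0, but no gene probe set of any kind did, the lowest being 21.7 on the ETS abnormal and 14.9 on the control array. A signal above 0 thus does not show that a marker transcript was present. The part of these markers in the sarcomere signals was not tested.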

How the data were processed

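Expression was measured on 1 Affymetrix array for each pool of ETS abnormal and control fiber sections. The authors deposited an intensity per probe set, the GCOS signal (version 1.40.036 in the submitters' processing notes), on a linear scale with each array scaled as a whole. The 2% trimmed mean was 1000.0 on both arrays, so the values were used as they are. Detection calls were not analysed here. The 57 control probe sets were set aside. The platform annotation named 1 gene for 20826 probe sets, several for 436 and none for 9780, and those with several were left out. RefSeq (GRCr8) gave the gene order and the promoters and holds no probe positions. The 8 members not matched to a listed promoter are named only by their symbol.

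Samples were grouped by their titles. With 1 array per population there was no test, and the number of arrays limits the precision. Signals were compared with a background (95th percentile of genes not expected in skeletal muscle) and with a 2-fold threshold. The fold threshold follows the methods, and the background was chosen here in place of the detection calls the methods use. The calling rule was run on simulated data, with raised and lowered probe sets placed well above background. The simulated arrays agreed far more closely than these 2 arrays do. That run therefore cannot show how often a call on these arrays is false. The named genes are all members, with values for those above background, each fast and slow gene of a family, the myosin heavy chains and the main structural genes. Other genes are named where above background in the sarcomere and calcium sets, as markers, or as single examples from other sets. Atp2a1 is named beside Atp2a2 although below background on both arrays. The members and lists were chosen with earlier results of these data known. Alternatives were scaling by the 75th percentile, quantile normalization, the 99th percentile or the median as background, a 4-fold threshold, one probe set per gene, no probe sets marked _s_at or _x_at, and probe sets above background only. Scripts ran under Python 3.11.15 with scipy 1.17.1, numpy 2.4.6, pandas 2.3.3 and matplotlib 3.10.9.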

Additional observations from a re-analysis of the deposited data

Results flagged for a closer look

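The control probe set for the middle part of Gapdh, which is no sarcomere gene, read 3601 on the ETS abnormal array, above its background, against 119 on the control array. It is given because it lies outside the values compared in the report. The control probe sets for the 3′ and 5′ ends of the same transcript had 450.3 and 445 and 1140.2 and 1550.2, below background on both arrays. A probe set annotated to Myh7 and Myh6 together was above background on the control array, with 2881 in ETS abnormal and 3367 in control fibers.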

How the results depend on the processing

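Scaling each array by its 75th percentile or quantile normalization left the numbers of members above background, called and at least 2-fold brighter and the share of probe set pairs of one sign within 1.5 times their values, and Mylk2 remained the one member called higher in control fibers. These settings gave medians of -0.59 and -0.66 for the fast and -0.55 and -0.63 for the slow probe sets. The background decided the counts. Set at the 99th percentile, it left 0 of 74 members above it in ETS abnormal and 2 in control fibers, where 1.29% and 1.66% of all gene probe sets exceeded it. Mylk2 was still called, against 0.0193% of all gene probe sets called higher in control fibers. Set at the median, 24 and 31 of 74 exceeded it, next to 42.8% and 47.8% of all gene probe sets. Then 8 and 9 were called higher in ETS abnormal and control fibers (10.8% and 12.2% of members), where 19.7% and 15.8% of all gene probe sets were. A 4-fold threshold left 0 members called in control fibers. With no background, 10 of 74 passed 4-fold toward ETS abnormal and 11 toward control fibers, where 19.6% and 18.7% of all gene probe sets passed it. With 1 probe set per gene 10 and 14 of 37 were at least 2-fold brighter, and the fast median was -0.98. Beside these counts stand 32.6% and 31.1% of all gene probe sets, which were not cut to 1 per gene. Without _s_at and _x_at probe sets the slow median was -0.88. Leaving out probe sets that were below background throughout reversed the fast median to 1.12, from 2 probe sets, left no slow probe set, and left 1 pair of probe sets of one gene, of the same sign (100%). No paired analysis was possible because each group has 1 array.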
